A study of Homo sapiens with 30 samples.

Results

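The data described here are the pollen-exposed cells of a time course, compared between the earliest sample, taken 10 min after dosing, and the sample of 2h25 min. The arrays were chosen by their labels, condition pollen at these times, and they are 6 of the 30 arrays of the series, 3 at each time. BEAS-2B is an immortalized human bronchial epithelial cell line, so that all arrays hold RNA of 1 line. The cells grew on Transwells, membrane inserts that let the upper surface be freed of medium, and were kept for a day at the air-liquid interface, with medium below and air above. A dose of 10 mg of whole birch pollen was then dispersed with pressured air and left to settle on the cells in a sedimentation chamber. Mock-exposed cells, named air in the labels, were handled alike. The paper states that they were exposed concomitantly, with a mesh that kept the pollen off them. Their 6 arrays of the same times are used as the control of the change over time. The replicate numbers come from the labels. Per the methods of the study, exposures were repeated independently on different days, and the labels do not tie a number to a day.

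RNA of each sample was labelled with 1 dye and hybridized on Agilent arrays with 58201 probes other than controls. A value is the log2 of the processed brightness of a probe minus the log2 of the 75th percentile of its array, so that 0 stands for that percentile. A difference of 1 is then a doubling. Between 54.1% and 57.3% of the probes were well above background on the pollen arrays of 10 min, and between 52.7% and 57.4% on those of 2h25 min, with 0 saturated spots. All 10 keratin and other epithelial markers looked up and all 3 mesenchymal markers were above background on all 6 arrays. The summed signal of the epithelial markers was at most 8.22 on the log2 scale at 10 min and between 7.87 and 8.32 at 2h25 min. Of 5 markers of differentiated airway cells, 2 (DNAH5 and MUC5B) were above background on none of the 6 arrays. The same held for MS4A1 of B cells, PECAM1 of endothelium and HBB of red cells. Other markers looked up were above background on all 6, namely SCGB1A1 and MUC5AC of airway cells and PTPRC and CD14 of leukocytes. So were VWF, CDH5, COL1A1 and PDGFRB among 5 endothelial and stromal markers. The endothelial gene VWF was the only one of the markers tested that changed, and its values are given with the falls.

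All 6 arrays of 10 min, mock and pollen, lie on 1 slide, and no array of 2h25 min lies on that slide. Slide and time cannot be told apart by the pollen arrays themselves, and a slide term in the model rests on the mock arrays of 55 min. With slide as a fixed term, of the 95 genes named by rule or list that were called here, 2 kept the call, ANGPTL4 and TFPI2. With slide as a random block 31 of the 95 were called. Of the 95, 39 were called in each of the 6 fits that leave out 1 pollen array, and the losses are given with the genes below. Since each sample is a whole culture, a lower value can mean fewer cells of a kind or less RNA per cell, and these cannot be told apart.

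Cells that meet a new stimulus switch on immediate early genes, whose transcription needs no new protein. Many of them encode transcription factors, among them the FOS and JUN proteins that pair as AP-1, and others encode phosphatases and adaptors that shut down the MAP kinases which switched them on. In airway epithelium, AP-1 and NF-kB act on the genes of cytokines and chemokines, secreted proteins that call and activate leukocytes, and on growth factors of the EGF family. YAP is a further factor, held out of the nucleus by cell contact, that acts through the DNA-binding TEAD proteins on genes of matrix and growth control.

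The promoters of 5 genes that rose are shown because they hold a short motif of one of these factors within the 250 bases before the start of transcription. The sequences and their positions are those of RefSeq on GRCh38.p14, printed 5′ to 3′ on the strand of the gene, with each match in capitals. CCN2, which encodes a matricellular growth factor, starts after chr6:131951373-131951622 (minus strand), where the TEAD motif GGAATG occurs 3 times, at 169, 104 and 95 bases before the start.
CCN2: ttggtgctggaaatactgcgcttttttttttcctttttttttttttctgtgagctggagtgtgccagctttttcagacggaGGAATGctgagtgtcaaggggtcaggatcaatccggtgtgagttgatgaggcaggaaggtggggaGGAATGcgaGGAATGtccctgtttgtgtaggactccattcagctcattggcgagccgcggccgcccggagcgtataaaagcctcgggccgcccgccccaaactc
The window of IL6, an inflammatory cytokine, at chr7:22726950-22727199 (plus strand) holds the NF-kB motif GGANTTTCC at 72 bases before the start. That of MAFF, a small Maf transcription factor, at chr22:38201744-38201993 (plus strand) holds the cyclic AMP response element TGACGTCA at 54 bases.
IL6: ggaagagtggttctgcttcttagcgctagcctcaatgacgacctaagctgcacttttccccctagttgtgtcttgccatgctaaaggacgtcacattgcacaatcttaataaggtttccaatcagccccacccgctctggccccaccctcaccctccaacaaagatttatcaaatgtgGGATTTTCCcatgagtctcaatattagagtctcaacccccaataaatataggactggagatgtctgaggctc
MAFF: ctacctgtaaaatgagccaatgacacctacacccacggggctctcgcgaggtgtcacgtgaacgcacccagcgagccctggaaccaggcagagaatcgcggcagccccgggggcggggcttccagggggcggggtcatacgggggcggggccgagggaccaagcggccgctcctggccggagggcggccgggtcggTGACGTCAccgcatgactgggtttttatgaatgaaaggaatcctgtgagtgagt
The window of IL11, a cytokine of the IL6 family, at chr19:55370464-55370713 (minus strand) holds the AP-1 motif TGAGTCA at 96 bases before the start. That of F3, tissue factor, which starts blood coagulation, at chr1:94541760-94542009 (minus strand) holds the AP-1 motif at 210 bases and the NF-kB motif at 187.
IL11: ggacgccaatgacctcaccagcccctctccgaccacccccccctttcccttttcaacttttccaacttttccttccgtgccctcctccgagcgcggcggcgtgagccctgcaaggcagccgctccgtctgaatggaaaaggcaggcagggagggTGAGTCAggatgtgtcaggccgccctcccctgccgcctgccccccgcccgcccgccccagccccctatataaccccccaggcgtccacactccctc
F3: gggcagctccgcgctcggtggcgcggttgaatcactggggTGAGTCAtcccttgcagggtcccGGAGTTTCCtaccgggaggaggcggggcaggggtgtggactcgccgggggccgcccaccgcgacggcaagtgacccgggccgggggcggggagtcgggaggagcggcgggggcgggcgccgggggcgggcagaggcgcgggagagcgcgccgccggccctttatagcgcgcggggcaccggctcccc
Both strands were searched. Of all 35116 promoters of the RefSeq table, 4.2% held the AP-1 motif, 1.65% the cyclic AMP response element, 1.45% the NF-kB motif and 11.9% the TEAD motif. Of the 356 promoters of 221 genes with a probe that rose from 10 min to 2h25 min, these shares were 7.87%, 2.81%, 4.78% and 13.2%. Of the 204 promoters of 142 genes with a probe that fell, they were 4.41%, 1.47%, 0.49% and 9.31%. A match of letters is a description of the sequence, and no test was made of these shares.

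Between 10 min and 2h25 min of pollen, 332 probes rose and 331 fell. Of the 32099 probes tested by limma this is 1.03% called higher and 1.03% called lower, where a call needs an adjusted p below 0.05 together with 1.1-fold or more between the means. Of these, 103 rose and 202 fell by 2-fold or more. With quantile normalization the split was 736 higher and 461 lower. Among named genes above background on all 6 arrays, the largest rises included the secreted proteins ANGPTL4, CCL20 and IL6 and the transcription factors NR4A3 and MYC, with changes of up to 10.3-fold.

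The 2 kinds of change differed in where they lay on the signal scale. The rising probes had a median change of 0.78 on the log2 scale and a median signal of -0.20 over the 6 arrays, and 303 of them (91.3%) were above background on all 6. The falling probes had a median change of -1.24 and a median signal of -4.61, and 219 (66.2%) were above background on all 6. Of the probes that rose, 272 (81.9%) belong to protein-coding genes, against 128 (38.7%) of those that fell and 65.7% of the probes that were not called. Among the falling probes, 132 (39.9%) have no name in the reference annotation and 59 (17.8%) are long noncoding RNAs. When the tested probes were put in 5 bins of equal size by signal, the brightest bin held 110 rises and 6 falls and the dimmest 31 rises and 121 falls. The median change over all probes of a bin went from -0.17 in the dimmest to 0.06 in the brightest under pollen, and from 0.02 to 0.01 under mock.

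**Figure D1:**
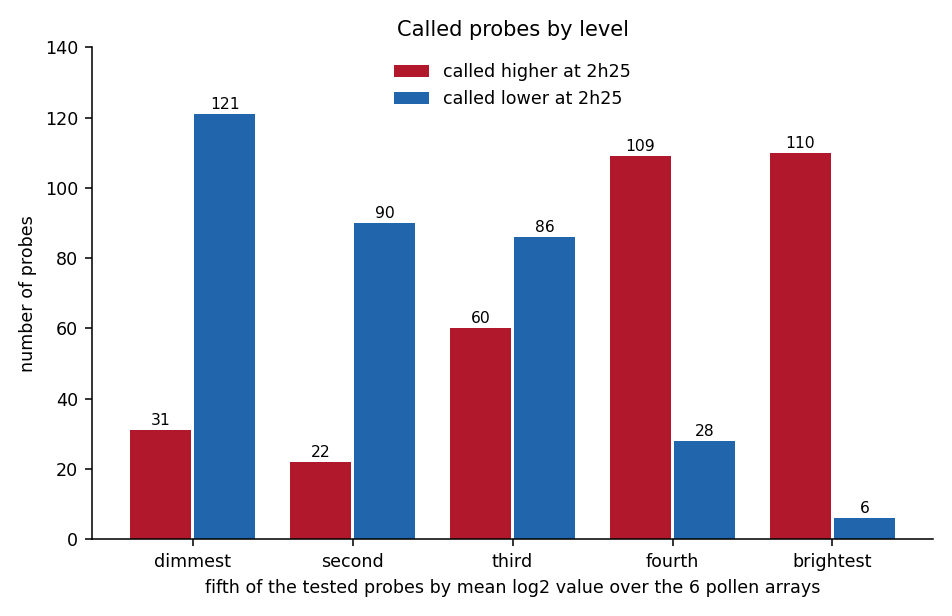
Number of probes called higher (red) and lower (blue) at 2h25 min than at 10 min under pollen, in 5 bins of the tested probes by mean log2 value over the 6 pollen arrays, from dimmest to brightest. Rises are most frequent in the brightest bin, with 110, and falls in the dimmest, with 121.

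The largest rise among named genes above background throughout was that of ANGPTL4, a secreted inhibitor of lipoprotein lipase (probe at chr19:8439197-8439256, hg19, as are all probe positions given). Its log2 values were -0.38, -0.74 and 0.14 in replicates 1 to 3 at 10 min and 2.87, 3.80 and 2.42 at 2h25 min. All 3 late arrays lay above all 3 early ones, and the change of 3.36 ± 0.34 (SE), 10.3-fold, had a limma adjusted p of 5.17e-06. In mock it was 1.28, with an adjusted p of 0.123. ANGPTL4 was called in all 19 alternative analyses run, among them those that leave out 1 array in turn and the model with slide, where its change was 3.83 with an adjusted p of 0.0103.

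NR4A3, an orphan nuclear receptor of the immediate early class (chr9:102628985-102629044), stood at -4.89, -4.65 and -4.36 at 10 min and at -1.42, -1.35 and -1.48 at 2h25 min. The late arrays were nearly alike and far from the early ones. The rise of 3.22 ± 0.26 (SE), 9.30-fold, had an adjusted p of 3.69e-07. NR4A3 rose in mock-exposed cells as well, by 2.01 with an adjusted p of 0.00114, and the difference between the changes had an adjusted p of 1.00. With slide in the model the pollen change was 2.18 and its adjusted p 0.0524.

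DUSP5, a nuclear phosphatase that inactivates ERK, went from -2.60, -2.64 and -2.55 to -0.18, -0.09 and -0.31. The arrays within each time differed by far less than the times did, and the change was 2.41 ± 0.24 (adjusted p = 5.13e-06). LIF, a cytokine that signals through gp130, went from -1.71, -1.60 and -2.05 to 0.23, 0.21 and -0.10, a change of 1.90 ± 0.18 (adjusted p = 4.15e-06). Another probe of LIF had a change of 0.58. The mock change of LIF, 0.89, passed the test at an adjusted p of 0.0490. INHBA, which encodes a subunit of activin, was at -5.45, -5.48 and -5.37 at 10 min and at -3.20, -2.69 and -3.87 at 2h25 min. The late arrays spread over more than 1 log2 unit, and the change was 2.18 ± 0.29 (adjusted p = 0.000170).

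MYC, a transcription factor that drives growth, went from 1.85, 1.92 and 2.42 to 3.91, 3.74 and 3.47. Its change was 1.65 ± 0.21 (adjusted p = 7.72e-05), while the mean in mock went from 2.29 to 2.64. EREG, epiregulin, a ligand of the EGF receptor, went from -1.72, -1.51 and -1.59 to 0.36, 0.14 and -0.22, a change of 1.70 ± 0.20 (adjusted p = 4.86e-05). For both genes, as for all of the 12 largest rises, absence of overlap was a condition for being named. FOSL1, an AP-1 subunit, went from -2.45, -2.28 and -2.58 to -1.20, -0.30 and -0.94, with a change of 1.63 ± 0.27 (adjusted p = 0.00164). MAFF went from -0.31, -0.38 and -0.63 to 1.51, 1.02 and 1.33, with a change of 1.73 ± 0.32 (adjusted p = 0.00423). DUSP5, LIF, INHBA, MYC, EREG and FOSL1 were each called in 18 of the 19 alternatives and lost the call where slide was in the model as a fixed term, with changes there of 1.42 for DUSP5, 1.28 for LIF, 1.98 for INHBA, 0.93 for MYC, 1.08 for EREG and 1.06 for FOSL1. The change of MAFF was 0.89 there (adjusted p = 1.00).

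For 3 of the 12 largest rises the call was lost in at least 1 of the 6 fits that leave out 1 pollen array. CCL20, a chemokine that attracts dendritic cells and lymphocytes, went from -4.09, -3.97 and -3.90 to -1.05, -1.35 and -1.89, a change of 2.56 ± 0.50 (adjusted p = 0.00693). Without replicate 1 of 2h25 min its adjusted p was 0.0527. IL6 went from -0.80, -0.79 and -1.27 to 1.92, 1.26 and 0.87, with a change of 2.31 ± 0.53 (adjusted p = 0.0218). Replicate 1 was the highest late array for both genes. With 1 of the 6 arrays left out, the change of IL6 was between 2.02 and 2.55 and its adjusted p between 0.0247 and 0.143, and it was called in 1 of these 6 fits, that without replicate 3 of 2h25 min. PTX3, a soluble pattern recognition protein, went from 0.87, 0.85 and 0.40 to 2.97, 2.00 and 2.13, with a change of 1.66 ± 0.39 (adjusted p = 0.0267). It was called in 2 of the 6 such fits, those without replicate 2 or 3 of 2h25 min, with adjusted p-values from 0.0358 to 0.185. With slide in the model the changes of CCL20, IL6 and PTX3 were 1.02, 0.52 and 0.52, each with an adjusted p of 1.00.

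**Figure D2:**
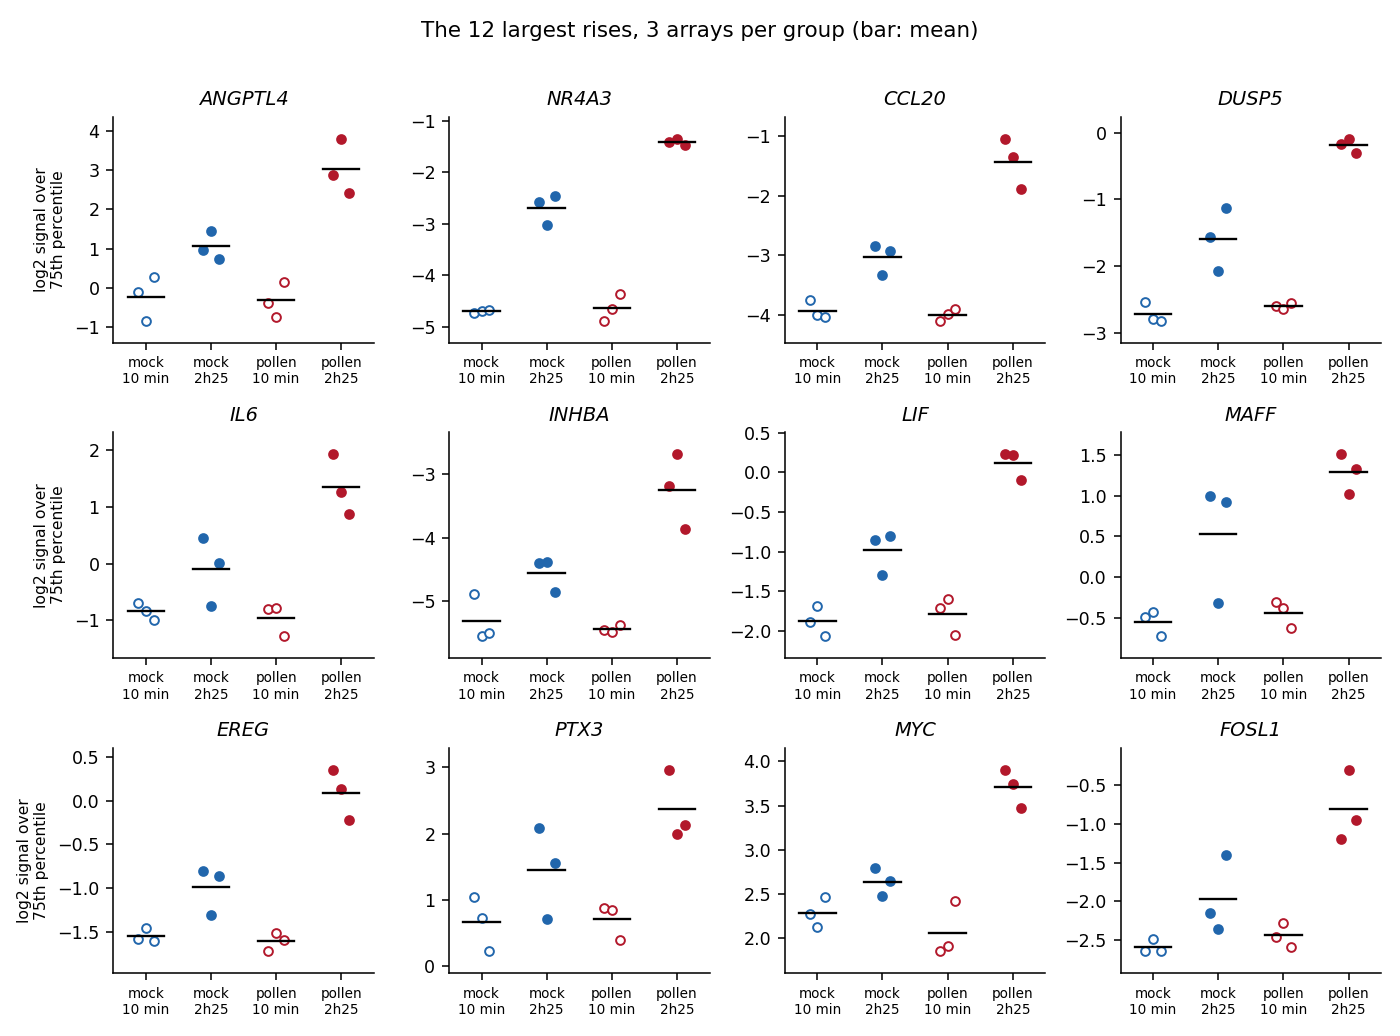
Log2 signal over the 75th percentile of the array, on every array of 10 min (open) and 2h25 min (filled), mock in blue and pollen in red, for the 12 genes with the largest rises, with a bar at the mean of 3 arrays. In each panel the 3 late pollen arrays lie above the 3 early ones, which was a condition for the choice of these genes. ANGPTL4, for example, lies at 2.42 to 3.80 against -0.74 to 0.14.

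Some genes rose from below background, and for these a fold change is a bound, computed against the higher of the measured value and the lowest signal well above background on each dim array. CSF2, which encodes the growth factor of granulocytes and macrophages, had values of -8.23, -7.98 and -7.99 at 10 min, on no array well above background, and of -5.30, -4.48 and -5.24 at 2h25 min. It was at least 4.01-fold higher at 2h25 min (adjusted p = 0.0346), and it was called in none of the 6 fits that leave out 1 array, where limma's adjusted p ranged from 0.0560 to 0.117. In mock, where it was not well above background at 10 min either, the adjusted p was 0.847, and with slide in the model the pollen change was 0.29. TMEM71 was at least 1.55-fold and the noncoding LNC-LBCS at least 1.22-fold higher. Another probe of LNC-LBCS had a change of 0.35. LNC-LBCS was also called in mock (adjusted p = 0.0490), where it was above background on 2 of the 3 arrays of 2h25 min and none of 10 min, and no size is given for it there. Without 1 of the 6 pollen arrays TMEM71 was called in 1 of 6 fits and LNC-LBCS in 4.

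Mock-exposed cells moved with the pollen-exposed ones in direction, by less. Among the tested probes 48 rose in mock, which is 0.15% called higher, and 7 fell, which is 0.0218% called lower. At an unadjusted p under 0.05 there were 2181 higher and 1740 lower probes in mock, and 2019 and 3290 under pollen. Of the probes that rose under pollen, 24 rose in mock too, 7.23% of the pollen rises and 50% of the mock rises, and 4 fell in both, 1.21% of the pollen falls and 57.1% of the mock falls. The mock change had the sign of the pollen change for 325 of the 332 rising probes (97.9%), for 310 of the 331 falling ones (93.7%) and for 67.9% of the probes not called. Its median was 0.35 for the rising and -0.49 for the falling probes, against 0.78 and -1.24 under pollen. The pollen change was the larger in 319 of the 332 rises and 323 of the 331 falls, which is a description, since the probes were chosen by their pollen change. Pollen and mock share slides at both times.

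**Figure D3:**
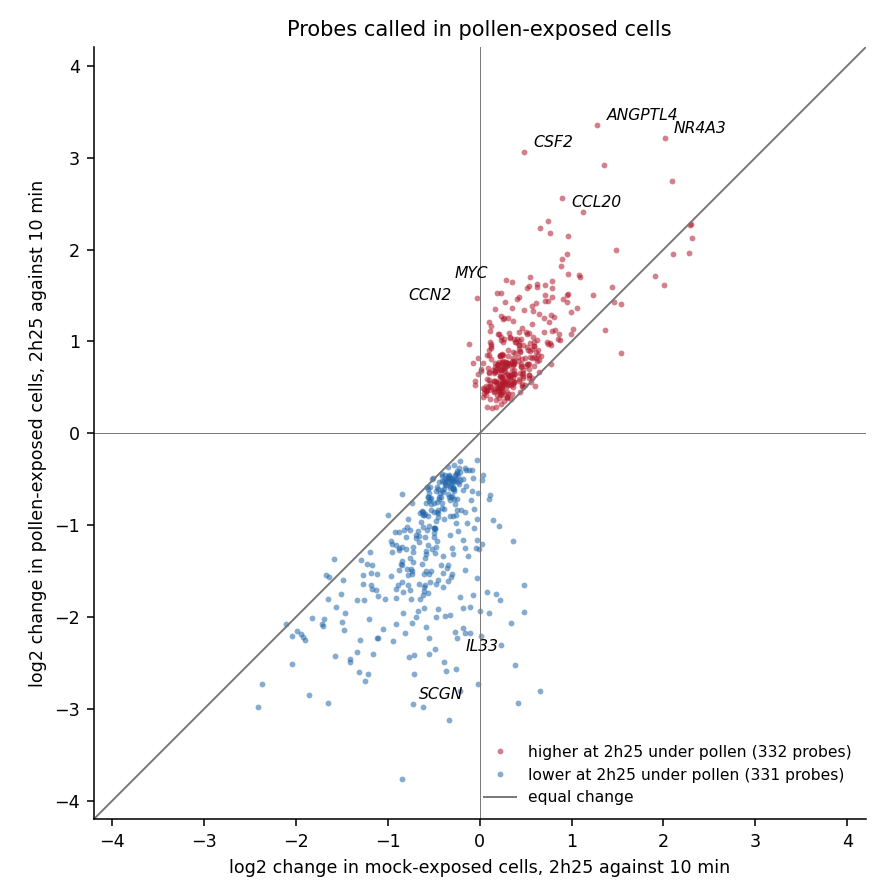
Log2 change from 10 min to 2h25 min in mock-exposed cells (horizontal) and pollen-exposed cells (vertical) for the 332 probes called higher (red) and the 331 called lower (blue) under pollen, each point 1 probe, with a line where both changes are equal. Most points lie beyond the line on the side of the larger pollen change, and CCN2 lies at a mock change of -0.03.

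The difference between the pollen and the mock change was tested for all probes, and 1 probe passed, that of CCN2 (0.00312% called higher). CCN2 (chr6:132270130-132270189) carries the 3 TEAD motifs shown above. Under pollen its values were 0.58, 0.70 and 1.01 at 10 min and 2.33, 2.30 and 2.07 at 2h25 min. The early and late arrays were far apart, with means of 0.76 ± 0.22 (SD, n = 3) and 2.23 ± 0.14 (SD, n = 3). In mock the means were 0.82 and 0.79. The pollen change of 1.47 ± 0.12 (SE), 2.77-fold, had an adjusted p of 3.69e-07, and the difference of 1.497 between the changes had an adjusted p of 0.000337 by limma. At an unadjusted p under 0.05 the difference was positive for 333 probes and negative for 690. At 55 min the pollen mean of CCN2 was 2.81, above that of 2h25 min. With slide in the model the pollen change was 1.23 (adjusted p = 0.0513) and the difference from mock 1.497 (adjusted p = 0.000522). The difference did not pass in 3 other fits, with adjusted p-values of 0.431 with the percentile over the own probes of each array, 0.389 with only the 12 arrays in the fit and 0.412 with the replicate block across times.

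Mock and pollen arrays with the same number deviated together within a time. With the number as a block within each time, a fit chosen after seeing the data, 5 probes passed the test of the difference. These were CCN2 (adjusted p = 0.0189), ANGPTL4 with a difference of 2.08 (adjusted p = 0.0342), MYC with 1.30 (adjusted p = 0.0342), SNAI1 with 0.78 (adjusted p = 0.0365) and 1 transcript with no reference name, whose difference was negative (adjusted p = 0.0365) and which was above background on 2 pollen arrays of 10 min and none of 2h25 min, so that no size is given. SNAI1, a repressor of epithelial adhesion genes, had risen under pollen from -0.65, -0.16 and -0.25 to 0.29, 0.77 and 0.44, and its mean in mock went from -0.31 to -0.23. Its rise was called in 2 of the 6 fits that leave out 1 pollen array. For the other rises named here, a difference between pollen and mock was not shown.

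Genes were also grouped in 28 lists by role, with 1 probe for each gene. Of the 24511 gene names tested, 280 rose and 276 fell, which is 1.14% called higher and 1.13% called lower, and the median change was -0.02 under pollen and -0.00 in mock. The counts of each list are to be read beside these shares. List medians are those without slide in the model unless slide is named. The change was higher under pollen than in mock for 45.2% of all gene names.

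Among transcription factors, 4 of 14 members of the AP-1 and EGR list rose and none fell. The median change was 0.62 under pollen and 0.47 in mock, and -0.05 under pollen with slide in the model. Besides FOSL1 the rises were FOSL2, an AP-1 subunit, by 1.52, and the EGR co-repressors NAB2 by 1.32 and NAB1 by 0.60. All 4 were called in each of the 6 fits that leave out 1 pollen array. The classic members of the list did not pass. FOS had values of 0.81, 0.59 and 1.19 at 10 min and -0.93, -0.74 and -1.16 at 2h25 min, with a change of -1.80 (adjusted p = 0.141) and a mock change of -2.18. Its groups did not overlap, and its spread over all groups of the model gave an SE of 0.64. EGR1 changed by -0.57 (adjusted p = 0.363), JUN by -0.35 (adjusted p = 0.662) and FOSB by 1.40 (adjusted p = 0.311), none of which passed.

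Of 29 other immediate early genes 14 rose and none fell, with a median of 0.74 under pollen and 0.15 in mock. After NR4A3, MAFF and MYC, the largest were TRIB1, a pseudokinase that promotes protein degradation, with 1.61, BHLHE40, a repressor of the clock, with 1.27, and IER3, a regulator of survival, with 1.17. TRIB1 went from 0.14, 0.22 and 0.52 to 1.77, 2.11 and 1.83. KLF4, a Krüppel-like factor of epithelia, rose by 0.99. Of the 14 rises 11 were called in each of the 6 fits, and KLF5, RGCC and SNAI1 in 2, 3 and 2 of them. The pollen change was above the mock change in 28 of the 29 genes of this list, chosen with earlier results of these data known.

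Of 17 feedback inhibitors of the MAP kinase pathway 7 rose and none fell, with medians of 0.51 and 0.12. DUSP6, the cytoplasmic ERK phosphatase, went from 0.37, 0.54 and 0.30 to 1.66, 1.78 and 1.40, a rise of 1.21 (adjusted p = 0.000143). The others were DUSP5 and DUSP4, the adaptors SPRY4, SPRY2 and SPRED1, and ERRFI1, which inhibits the EGF receptor, by 0.90. For SPRY4 the called probe rose by 1.04 and another probe of the gene had a change of -1.25. With 1 array left out, DUSP4 was called in 4 and SPRY4 and SPRED1 in 3 of the 6 fits, and the other 4 genes in all. DUSP1, an immediate early phosphatase, stood at a change of -0.05 (adjusted p = 0.961).

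On the side of the receptors, 3 of 10 genes of the EGF receptor list rose, all of them ligands, namely EREG, HBEGF by 1.36 and AREG by 1.05. HBEGF went from -2.78, -3.37 and -3.26 to -1.71, -1.78 and -1.83, and in mock its change was 1.06 (adjusted p = 0.0876). With slide in the model the pollen change of HBEGF was 0.84 (adjusted p = 1.00). AREG was called in 3 of the 6 fits that leave out 1 array. The median of the list was 0.23 under pollen and 0.19 in mock.

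Cytokines and chemokines had the highest median of the 28 lists under pollen, 0.84, against 0.11 in mock. With slide in the model their pollen median was 0.29, and the highest was that of TGF-beta feedback and ID genes, 0.63. Of 25 members tested, 9 rose and 1 fell. The rises were CSF2, CCL20, IL6, INHBA and LIF, and IL1A by 1.60, IL1B by 1.53, IL11 by 1.42 and CCL2 by 0.97. IL1B, a fever-inducing cytokine, went from -3.24, -3.02 and -3.01 to -1.48, -1.15 and -2.05 (adjusted p = 0.000728). IL11, with the AP-1 motif shown above, went from -4.05, -3.96 and -3.95 to -2.63, -2.15 and -2.92 (adjusted p = 0.00136). The groups of both genes were apart by more than their spread. The changes of IL1A, IL1B and IL11 were 0.47, 0.80 and 1.12 with slide in the model, and none of them passed. With 1 of the 6 arrays left out, CCL2 and CSF2 were called in none of the 6 fits (adjusted p from 0.0505 to 0.183 for CCL2), IL6 and IL33 in 1, IL1A in 3 (up to 0.101) and CCL20 in 5. Of the 10 cytokines called, 4 (INHBA, LIF, IL1B and IL11) kept the call in all 6. CXCL8, the neutrophil chemokine, had a change of 1.07 without overlap of the groups and did not pass (adjusted p = 0.466). CSF3, the granulocyte growth factor, had a change of 2.21 (adjusted p = 0.101).

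The cytokine that fell was IL33, an alarmin kept in the nucleus and set free by damage. Its values were -5.36, -5.36 and -5.29 at 10 min and -8.84, -7.36 and -6.48 at 2h25 min, when 2 of the 3 arrays were above background. The early arrays were alike and the late ones spread over more than 2 log2 units. The change of -2.22 had an adjusted p of 0.0402, and it was called in 1 of the 6 fits that leave out 1 array, with adjusted p-values from 0.0154 to 0.274. The mean in mock was -6.77 at 10 min and -7.01 at 2h25 min. With slide in the model the pollen change of IL33 was -0.74. TSLP, another epithelial alarmin, had a change of 0.24 (adjusted p = 0.815).

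In the NF-kB list of subunits and inhibitors, 3 of 17 genes rose, with a median of 0.36 under pollen and 0.05 in mock. BCL3, a nuclear relative of the inhibitors, went from 1.80, 2.40 and 2.44 to 3.79, 4.12 and 3.51, a rise of 1.59 (adjusted p = 4.70e-05). The change of BCL3 was 1.21 with slide in the model (adjusted p = 0.355). The subunit NFKB1 rose by 0.49 and TNIP1, an inhibitor, by 0.38. With 1 array left out, TNIP1 was called in none of the 6 fits (adjusted p from 0.0528 to 0.102) and NFKB1 in 2 of them (up to 0.242). The inhibitor NFKBIA had a change of 0.43 (adjusted p = 0.301) and TNFAIP3 one of 0.20 (adjusted p = 0.795). Downstream of gp130, the receptor chain shared by IL6, IL11 and LIF, 3 of 19 genes rose. SOCS3, which shuts this receptor off, went from -0.98, -0.82 and -0.75 to 0.70, 0.72 and 0.41, a change of 1.46 (adjusted p = 5.17e-06), which was 1.17 with slide in the model (adjusted p = 0.211). The kinases PIM3 and PIM1 rose by 0.85 and 0.70, and the median of the list was 0.08.

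Of 15 YAP and TEAD targets 6 rose and none fell, with medians of 0.57 and 0.15. They were CCN2, F3 by 1.09, DLC1 by 1.02, TGFB2 by 0.84, AMOTL2 by 0.63 and LATS2 by 0.62, of which the last pair restrain YAP. F3 went from 0.50, 0.89 and 0.70 to 1.65, 2.18 and 1.54 (adjusted p = 9.44e-05), and with slide in the model its change was 0.77 (adjusted p = 0.485). With 1 array left out, CCN2, F3 and DLC1 were called in all 6 fits, AMOTL2 and LATS2 in 3 and TGFB2 in 2. CCN1, a close relative of CCN2, had values of 5.25, 5.16 and 5.13 and then 5.95, 5.80 and 5.66, and its change of 0.62 did not pass (adjusted p = 0.0914). In the list of TGF-beta feedback and ID genes 6 of 13 rose, led by ID1, an inhibitor of helix-loop-helix factors, by 1.43 and TGIF1, a SMAD co-repressor, by 1.34. Another probe of TGIF1 had a change of -0.57. With 1 array left out, 2 of these 6 were called in all 6 fits, and ID1 in 2 of them.

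The lists that follow held 1 to 3 members that rose. Of 11 genes of mRNA decay 3 rose, among them ZFP36L1 and ZFP36L2, which bind AU-rich elements, by 1.03 and 0.95. Of 15 genes of tissue factor, proteases and the plasminogen system 3 rose, F3, TFPI2 by 0.85 and PLAU, urokinase, by 0.61. Of 12 glucocorticoid targets 3 rose (ERRFI1, KLF9 and the clock gene PER1), and of 17 clock genes 1, PER1, by 0.61. Of 28 interferon-stimulated genes 3 rose, GBP1 by 0.82, IRF1 by 0.82 and GBP3 by 0.65, and the median of that list was 0.01. In the stress lists, 2 of 16 NRF2 targets rose (HMOX1, heme oxygenase, by 0.97 and TXNRD1 by 0.50), 2 of 23 genes of the unfolded protein and integrated stress response (PPP1R15A by 1.01 and CEBPB by 0.54) and 2 of 20 p53 targets (GADD45B by 0.69 and TNFRSF10B by 0.62). ANGPTL4 was the only 1 of 9 PPAR targets to rise. The list of 25 genes of cholesterol synthesis had a median change of -0.20 under pollen and -0.30 in mock. THBS1 rose in the list of 22 SRF and actin targets and PTGER4 in that of 9 prostaglandin genes. With 1 array left out, none of the rises of the NRF2, stress response and p53 lists was called in all 6 fits, HMOX1, GADD45B and TFPI2 were called in 1 of them, TNFRSF10B in 2 and PLAU, PTGER4, PPP1R15A and CEBPB in 3. ZFP36L2, GBP3, PER1 and TXNRD1 were called in 4 and KLF9 in 5.

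In 7 lists no gene passed the limma test under pollen. At an unadjusted p under 0.05 there were 2 higher and 0 lower among 30 genes of cell division, 1 and 0 among 23 of DNA replication, 11 and 0 among 35 of ribosome biogenesis, and 4 and 2 among 25 of hypoxia and glycolysis. Among 20 heat shock chaperones there were 3 and 1, and 1 and 0 each among 11 metallothionein and zinc transport genes and 12 of RNA polymerase II pausing. The median of the ribosome biogenesis list was 0.18 under pollen and 0.10 in mock.

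**Figure D4:**
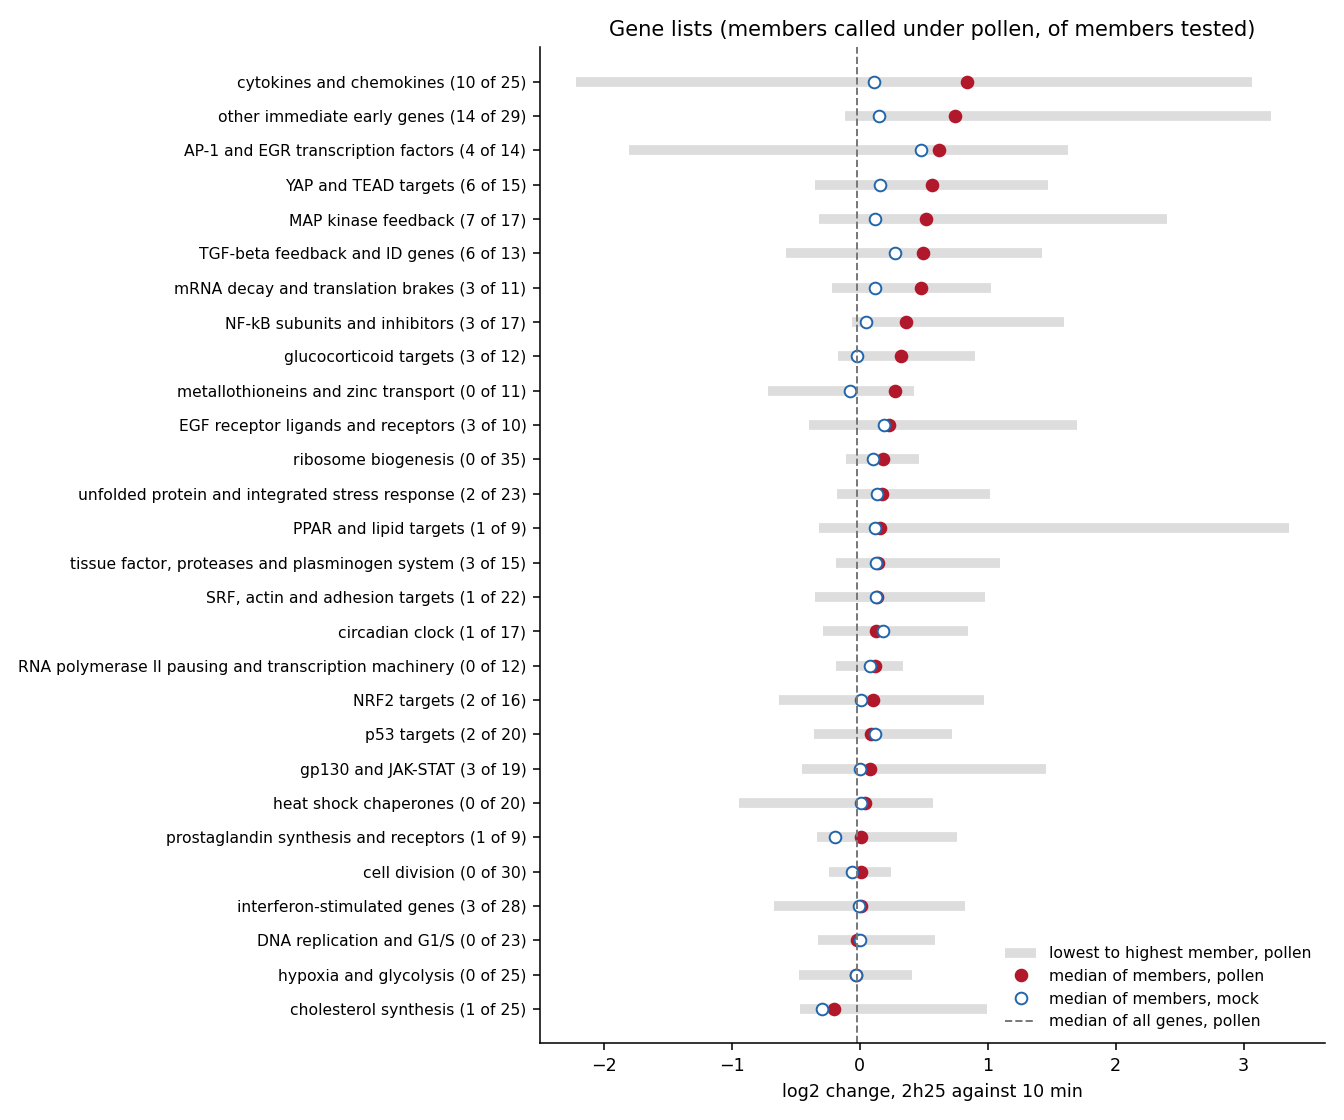
Median log2 change from 10 min to 2h25 min over the members of each of 28 gene lists, under pollen (red, filled) and mock (blue, open), with a bar from the lowest to the highest member under pollen and, in brackets, the members called of those tested. The dashed line marks the pollen median of all gene names, -0.02, and cytokines and chemokines are highest with 0.84 (0.29 with slide in the model, which is not drawn).

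S100A5, a calcium-binding protein, had the largest fall among named genes above background throughout and went from -1.14, -1.72 and -1.21 to -4.04, -3.61 and -2.84, a change of -2.14 (adjusted p = 0.0483). The mock change of S100A5 was -1.48. VWF, von Willebrand factor, went from -4.41, -4.90 and -4.50 to -6.93, -5.48 and -5.87, with a change of -1.49 (adjusted p = 0.0140). The other tested probe of VWF had a change of 0.15, and the mock change was -0.16. HOPX, a homeodomain protein, had a change of -2.13 (adjusted p = 0.0468) and another probe with 0.40. The cation channel TRPM5, with a single probe, had a change of -1.76 (adjusted p = 0.0266). The remaining 8, with changes from -1.67 to -1.42, were RBFOX3, HNRNPKP3, PCDHA5, C2orf92, KRTAP6-2, the keratin KRT3, the mitochondrial ferritin FTMT and LRRC7. Over the 4 probes of C2orf92 the changes ran from -1.54 to 0.38, and another probe of HNRNPKP3 had a change of -0.20. With 1 of the 6 arrays left out, KRTAP6-2 was called in none of the 6 fits, and each of the other 11 in 1 to 3 of them. Adjusted p-values reached 0.235 for S100A5 and 0.119 for VWF, each without replicate 1 of 2h25 min. The changes of S100A5, HOPX, TRPM5 and VWF were -0.36, -0.69, -0.28 and -0.77 with slide in the model, each with an adjusted p of 1.00.

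Of the genes that fell to below background, SCGN, a calcium-binding protein of secretory cells, went from -5.83, -4.52 and -5.88 to -8.60, -7.39 and -7.99. It was at least 3.22-fold lower at 2h25 min (adjusted p = 0.0224). The corresponding bounds were 3.06 for ART5, 2.70 for the olfactory receptor gene OR4X2, 2.60 for CELA2B and 2.41 for NRSN1. Another probe of ART5 had a change of 0.33. With 1 of the 6 arrays left out, NRSN1 was called in none of the 6 fits (adjusted p from 0.0653 to 0.227), CELA2B in 1, OR4X2 in 2, SCGN in 3 and ART5 in 5.

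The called probes were followed over the slides. The median value of the falling probes was -3.96, -4.06 and -3.95 on the pollen arrays of 10 min, all on slide 1, and -5.53, -5.17 and -4.89 on those of 2h25 min, the last on slide 4 and the others on slide 2. In mock at 55 min it was -4.07 on the array on slide 1 and -4.95 and -4.58 on the arrays on slide 2. Thus within 1 exposure and time the array on slide 1 stood higher, by a median of 0.56, in 292 of the 331 falling probes (88.2%). For the rising probes it stood lower by a median of 0.21 and was higher in 55 of 332 (16.6%), and for probes not called the median difference was -0.02, with 46.6% higher. This is a comparison of 1 array with 2.

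With slide as a fixed term, chosen after seeing the data, 6 probes were called, 4 higher and 2 lower, among them 2 of the 332 rises and 0 of the 331 falls. At an unadjusted p under 0.05 there were 1724. The change had the same sign as without slide for 331 of the rises, with a median of 0.58, and for 322 of the falls, with a median of -0.54. The median SE over probes was 0.32 with slide and 0.19 without. With slide as a random block 123 probes were called, 106 of the rises and 17 of the falls. In that fit the calls were 6 of 29 in the list of other immediate early genes, 4 of 25 cytokines, 4 of 14 AP-1 and EGR factors, 3 of 17 MAP kinase inhibitors and 3 of 15 YAP targets.

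**Figure D5:**
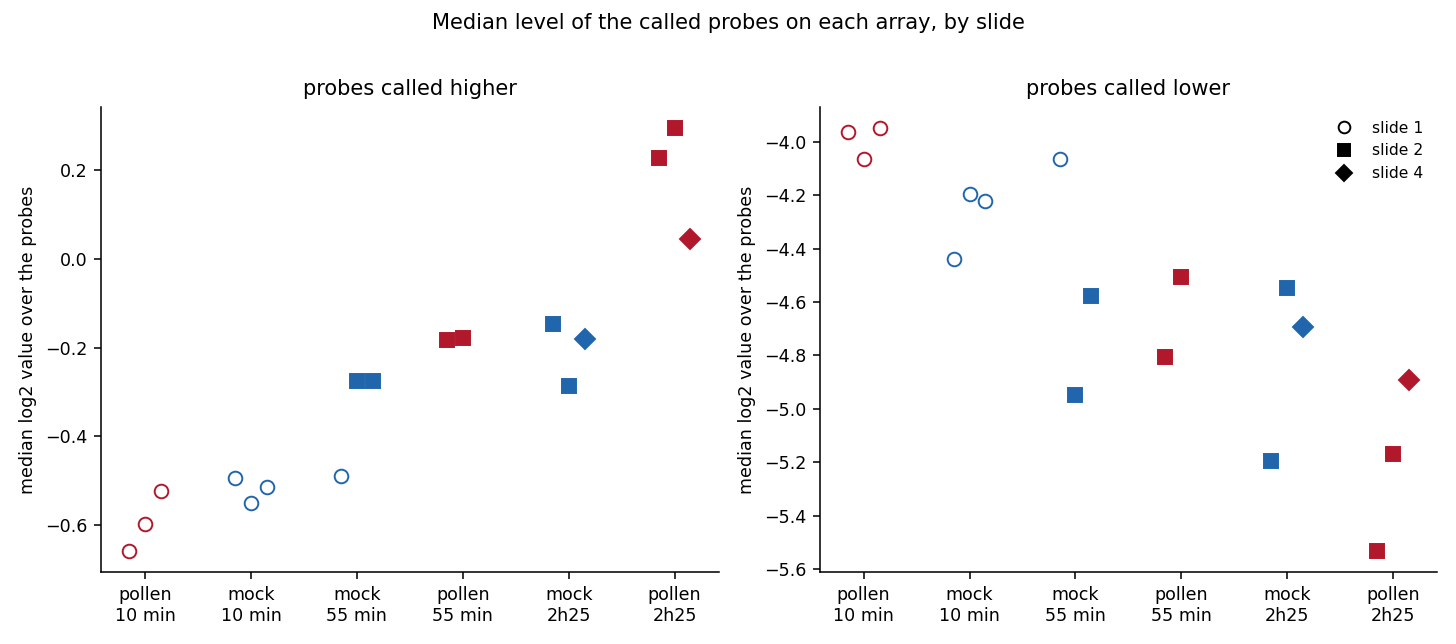
Median log2 value of the 332 probes called higher (left) and the 331 called lower (right) on the arrays of 10 min, 55 min and 2h25 min, pollen in red and mock in blue, with the slide of the array as the symbol. The pollen array of 55 min on the other array design is not drawn. The mock array of 55 min on slide 1 lies at -4.07 in the right panel, above the mock arrays of the same time on slide 2 at -4.95 and -4.58.

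The samples of 55 min were used to place the called changes in time. For the 2 pollen arrays of 55 min on slide 2 the mean was taken. It lay between the means of 10 min and 2h25 min for 275 of the 332 rising probes (82.8%). For the falling ones this held in 306 of 331 (92.4%), and for probes not called in 41.5%. In 46 of the rises it had passed the level of 2h25 min. The pollen arrays of 10 min lie on slide 1, so that slide and time change together in the step to 55 min. For the falling probes this step had a median of -0.67. In mock at 55 min these probes stood 0.56 higher on slide 1 than on slide 2. The part of slide in the step was not tested. Slide 2 holds 2 pollen arrays of 55 min and 2 of 2h25 min. Within it the rising probes went up further between these times by a median of 0.37, in 289 of 332 (87.0%). Of the probes not called, 67.6% moved on in the direction of their own change. The falling probes went down by a median of 0.58, and the probes not called by 0.07. The late arrays are those by which the probes were chosen, so that these values are a description.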

How the data were processed

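The authors deposited spot intensities for each array, which per the file headers had the background subtracted and were detrended within the array but not scaled between arrays, from Agilent Feature Extraction 11.0.1.1 (submitters' processing notes). The log2 values that the authors also deposited, used as an alternative, have column medians of 5.77 to 5.8. Their background correction and normalization are not given in the sources used here. Here, spots with an uneven or outlier mark were removed (R 4.3.3), the remaining spots were averaged by probe, and each log2 value was taken relative to the 75th percentile of its array. The percentile was that of the 33873 probes shared by both array designs, since 1 of the 30 arrays has another design. A probe was tested if every array of 1 or more of the 10 groups had it well above background. The model had a mean for each of the 10 groups and used all 30 arrays (limma 3.58.1, lmFit and eBayes, 20 residual and 2.35 prior degrees of freedom, two-sided tests, Benjamini-Hochberg adjustment). The p-values of genes are from it unless another fit is named beside them. The fit was tested on simulated data with known changes and independent noise. These simulated data held no effect of slide or replicate, so that the test says nothing about slide and time.

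Probes were matched to reference names by accession (33536 probes) or by the gene name of the array design (4609 probes), and the remaining 20056 carry the name of the design. Named are the 12 largest rises and the 12 largest falls above background on all 6 arrays without overlap of the groups, up to 5 bounds in each direction, the probes called for the difference from mock, and members of 28 gene lists, each gene by its brightest probe. The lists, the named genes rule and the comparison itself were chosen with earlier results of these data known. Arrays with the same number deviated together between mock and pollen of 1 time (correlations over the probes from 0.364 to 0.549) and not between 10 min and 2h25 min of pollen (from -0.06 to 0.03). Precision is limited by having 3 arrays in a group. Alternatives changed the scaling, background correction, filter, arrays in the fit, weights and blocks, or left out 1 array. Columns of samples outside the series numbered 0. Some items are not reported here.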

Additional observations from a re-analysis of the deposited data

Results flagged for a closer look

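CCN2 was the probe whose change from 10 min to 2h25 min differed between pollen and mock by the limma interaction test, by 1.497 on the log2 scale with an adjusted p of 0.000337. Under pollen it rose by 1.47 and in mock its change was -0.03. All 3 pollen arrays of 2h25 min, at 2.33, 2.30 and 2.07, lay above the 3 of 10 min, at 0.58, 0.70 and 1.01. The difference passed the test in each of the 12 fits that leave out 1 of the arrays of both exposures. It did not pass with the percentile over the own probes of each array (adjusted p = 0.431), with only the 12 arrays in the fit (0.389) or with the replicate block across times (0.412).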

How the results depend on the processing

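Under pollen, 663 probes were called (332 higher, 331 lower), in mock 55, and for the difference between the changes 1. With the percentile over the own probes of each array these counts were 156 (92 higher, 64 lower), 33 and 0, with 480 differences at an unadjusted p under 0.05. With quantile normalization 1197 and 223 were called, with normexp background correction 1114 (623 higher, 491 lower) and 276, and with the deposited log2 values 1320 (724 higher, 596 lower) and 609. These 3 settings leave out the pollen array of 55 min on the other design. Without the filter on dim probes 23 probes were called in mock, and with a stricter filter 6. With only the 12 arrays of both times in the fit the counts were 897 under pollen (337 higher, 560 lower), 151 in mock and 0 for the difference (1172 at an unadjusted p under 0.05). With only the 6 arrays of a comparison they were 777 under pollen (275 higher, 502 lower) and 0 in mock (4303 at an unadjusted p under 0.05). With limma array weights they were 897 and 204. With the replicate block, the planned pairing of equal numbers across times and exposures, 956 probes were called under pollen (339 higher, 617 lower), 57 in mock and 0 for the difference (1369 at an unadjusted p under 0.05). With the replicate block within each time, added after seeing the data, 5 differences were called. With slide as a random block (correlation within a slide 0.21) 123 were called under pollen and 1 in mock (1871 at an unadjusted p under 0.05). With slide as a fixed term, added after seeing the data, 6 were called under pollen and 4 in mock. TNFRSF10B, which rose by 0.62, had a change of -0.053 with slide as a fixed term (adjusted p = 1.00). Of 530 probes named or in a list, it was the only one whose called change turned its sign in any alternative. Leaving out 1 array gave between 210 and 704 calls under pollen, 264, 347 and 354 without replicate 1, 2 or 3 of 10 min and 210 without replicate 1 of 2h25 min. In mock it gave between 2 and 28 calls, and each of the 6 mock arrays moved the count by more than 1.5 times. The difference kept 1 call, that of CCN2, in these fits. The cause of these changes was not tested.

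Each group has 3 arrays, and 10 min and 2h25 min share no slide, so that the slide term rests on 1 mock array of 55 min. A fall of a probe with low signal is limited by the background that 219 of the 331 falling probes stayed above on all 6 arrays.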

Other observations

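Among the genes outside the lists, chosen after their values were seen, several growth factors, receptors and signalling proteins rose under pollen from 10 min to 2h25 min. DKK1, a secreted inhibitor of WNT signalling, went from -1.13, -1.25 and -1.19 to 0.28, 0.82 and 0.08, a change of 1.58 (limma adjusted p = 0.00113) against 0.52 in mock. MAP2K3, a kinase that activates p38, went from 0.63, 0.88 and 1.12 to 2.31, 2.61 and 2.16, a change of 1.48 (adjusted p = 1.62e-05). The groups did not overlap for either gene, but this held for all 332 rising probes and is no separate support. The transcription factors RUNX1 and HIVEP2 rose by 1.21 and 1.28, and MIDN, midnolin, which takes nuclear proteins to the proteasome, rose as well. The growth factors PDGFB and PDGFA rose by 0.98 and 0.97, the ephrin EFNA1 and the ephrin receptor EPHA2 by 0.99 and 0.98, and the Notch ligand JAG1 by 0.86. SDC4, a heparan sulfate proteoglycan, rose by 0.99, and THBD, thrombomodulin, a surface anticoagulant, by 0.93.

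Zinc finger genes named ZNF, ZFP, ZSCAN or ZKSCAN, a group also picked after the values were seen, had mostly negative changes. Members of the gene lists were left out of this group, among them ZFP36L1 and ZFP36L2, which rose by 1.03 and 0.95. Of 509 tested, 3 rose (0.589%) and 17 fell (3.34%), and 380 (74.7%) had a change below 0. Of 14763 protein-coding genes, 229 rose (1.55%), 98 fell (0.664%) and 47.7% had a change below 0. That set keeps the list members, so the shares of both sets are not fully alike in what they cover. The median change of the zinc finger genes was -0.14 under pollen and -0.08 in mock, and -0.07 under pollen with slide as a fixed term. For all protein-coding genes it was 0.01 under pollen and 0.01 in mock, and -0.01 under pollen with slide. The median signal of the zinc finger genes was -1.30, below the -0.30 of all protein-coding genes, and the part of signal and slide in the difference was not tested.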
